A study of Homo sapiens with 6 samples.

Results

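The L1 and IgLON families and the related proteins ALCAM and MCAM are cell-surface adhesion molecules of the immunoglobulin superfamily, best known from the nervous system. Their 10 genes were followed here among the 61155 symbols of the deposited count table: L1CAM, CHL1, NRCAM and NFASC of the L1 family, NTM, LSAMP, OPCML and NEGR1 of the IgLON family, and ALCAM and MCAM. Members were taken by name, and the set was chosen by family and selected on fold changes between the same 2 groups, which were known when it was drawn up. Values of these genes between the groups are therefore a description, without tests.

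The cells were MDA-MB-231, a long-established line from a human breast cancer with mesenchymal features, and 3 control and 3 VASP knockdown libraries were sequenced. VASP binds actin filaments and helps them lengthen at the cell edge and at adhesions. All cells were grown with serum and insulin and harvested 48 hours after transfection. The labels of the controls name both plko, a short hairpin vector, and a negative control siRNA, those of the knockdown both shVASP and a VASP siRNA, so which reagent was used cannot be told. Both sets of labels give the same groups. The 3 control columns of the table all extend the title of the first control sample by a further number, so they may be the 3 control samples or repeats of 1 of them. Pairs of control libraries had a mean chi-square per gene of 5.93 to 8.82 and pairs of knockdown libraries of 5.67 to 9.73, where sampling noise alone gives about 1. Each column was therefore counted as 1 library, and n = 3 in control means 3 columns. No label gives separate cultures, so p-values below take in only how far these libraries scatter, and that scatter may be technical. The study asked how loss of VASP alters these cells.

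L1 family proteins span the membrane, bind each other and partners such as integrins, contactins and neuropilins outside the cell, and attach to ankyrins and ERM proteins inside it. They guide axons and organise myelinated fibres, and L1CAM is also found in carcinomas, where proteases release its outer part. IgLON proteins have no cytoplasmic part. They are held by a GPI lipid anchor, pair with each other in cis and in trans, and shape neurite growth and synapses. ALCAM (CD166) binds itself and CD6 on lymphocytes, and MCAM (CD146) is known from endothelium, pericytes and melanoma and binds laminins that contain the LAMA4 chain.

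The knockdown was visible in VASP itself, which was counted 4544, 5036 and 4708 times in control and 396, 379 and 360 times in knockdown libraries. The libraries held 28856610 to 30055503 counts, and the floor of 3 counts lies at 0.0998 to 0.104 CPM (counts scaled to library size). Across all genes 16633 passed the filter on low counts, and their median log2 fold change (knockdown against control) was -0.008. Of these, edgeR called 18.9% higher and 18.3% lower in knockdown (adjusted p under 0.05), the shares to set beside the marker counts below. All 6 line markers were present, with VIM (vimentin) at 1663 CPM and AXL at 1890 CPM in control. Of 6 luminal markers listed as low in this line, 2 had at most 3 counts in every library, CDH1 (E-cadherin) among them. The other 4 were tested, with 1 lower, and 0 lower when corrected for GC content. Here and below, that correction fits GC content and exon length together, so their shares in it cannot be told apart. This luminal list summed to 113 to 117 CPM in control and 101 to 109 CPM in knockdown libraries. Of 12 neuron markers, STMN2, ELAVL4, NEFL and NEFM had no count, 3 were tested and 1, MAP2, fell (median log2 fold change of the 3 -0.39), and the list summed to 5.05 to 6.75 CPM in control and 3.81 to 4.86 CPM in knockdown libraries. Of 10 markers of glia, Schwann cells and melanocytes, 4 were tested and 3 of them fell, 1 when corrected for GC content. That list summed to 86.6 to 107 CPM in control and 80.1 to 92.0 CPM in knockdown libraries, mostly from MBP. The endothelial list summed to 7.09 to 7.44 CPM in control and 6.16 to 6.36 CPM in knockdown libraries, with 2 of 7 tested and PECAM1 lower. The pericyte and smooth muscle list summed to 11.3 to 13.3 CPM in control and 10.0 to 10.2 CPM in knockdown libraries, with 3 of 6 tested, ACTA2 lower and MYH11 at 0 counts. The leukocyte list summed to 2.45 to 3.24 CPM in control and 1.94 to 3.42 CPM in knockdown libraries, with 1 of 6 tested and 0 called by edgeR, 0 at an unadjusted p under 0.05 and 0 by DESeq2. The part of these small amounts in the results below was not tested.

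A single gene, ALCAM, supplied most of the mRNA of the set in these cells. Levels between genes are given per length, as TPM, a share of all transcripts computed from the counts and merged exon lengths. In control, ALCAM stood at 61.6 ± 2.41 TPM (SD, n = 3), NTM at 4.95 ± 0.215, L1CAM at 2.57 ± 0.407, MCAM at 1.67 ± 0.352, NRCAM at 0.713 ± 0.0235 and NEGR1 at 0.249 ± 0.0834. These 6 genes kept apart from their neighbours in this order in every control library. LSAMP, NFASC, OPCML and CHL1 lay at or below 0.0282 TPM in each control library, and their order among themselves is within the spread. In knockdown the order at the top was ALCAM, L1CAM, MCAM and NTM, and the library values of MCAM (1.75 to 2.11 TPM) and NTM (1.72 to 2.04 TPM) overlapped. ALCAM made up 84.5% to 86.6% of the summed TPM of the set in control libraries and 87.0% to 88.0% in knockdown libraries.

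Of the 10 genes, 6 passed the filter on low counts: 2 were higher in knockdown (L1CAM and ALCAM), 1 was lower (NTM) and 3 (MCAM, NRCAM and NEGR1) did not pass the threshold of edgeR's quasi-likelihood test, a Benjamini-Hochberg adjusted p under 0.05 over all genes tested. Across all genes tested 37.2% passed it, 18.9% higher and 18.3% lower. The libraries of the groups did not overlap in CPM for 3 of the 6, against 47.6% of all genes tested. Among the members, L1CAM and NTM changed by at least 1 on the log2 scale, which 1.32% of tested genes did together with a call. The median log2 fold change of the 6 was -0.07. Since the set was drawn up on this contrast, nothing is read from these shares. In bulk RNA, fewer cells that carry a transcript and less of it per cell cannot be told apart.

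**Figure D1:**
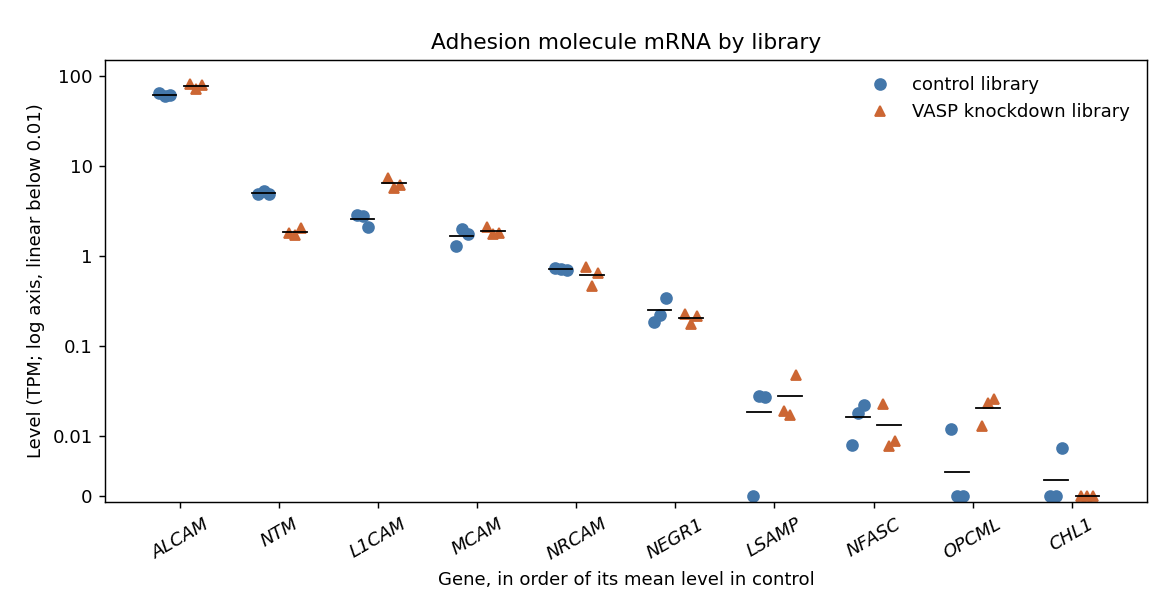
Level of each adhesion molecule in each library, in TPM on a log axis that is linear below 0.01, with the group mean as a black line. L1CAM and NTM reverse their order relative to each other. NTM falls from 4.82 to 5.20 TPM in control libraries to 1.72 to 2.04 TPM in knockdown libraries. L1CAM rises from 2.10 to 2.86 TPM to 5.68 to 7.26 TPM. LSAMP, NFASC, OPCML and CHL1 lie near 0 throughout.

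L1CAM, the founding member of its family, was the L1 gene past the threshold among the 2 tested, and NTM (neurotrimin) the IgLON gene past it among 2. The reference promoters of the genes that differed are shown because these genes moved in different directions, so their start regions can be set side by side. The windows run from 250 bases before to 50 bases after a start (RefSeq, GRCh38.p14), 5′ to 3′ on the strand of the gene, and 9 of the 10 members have such an entry. Capitals mark matches, on either strand, to the GC box GGGCGG or to CAGGTG, an E-box bound by SNAI and ZEB factors. The L1CAM window is at chrX:153875895-153876194 (minus strand), the upstream and the inner NTM windows at chr11:131370365-131370664 and chr11:131911086-131911385 (plus strand), and the ALCAM window at chr3:105366659-105366958 (plus strand).
L1CAM promoter: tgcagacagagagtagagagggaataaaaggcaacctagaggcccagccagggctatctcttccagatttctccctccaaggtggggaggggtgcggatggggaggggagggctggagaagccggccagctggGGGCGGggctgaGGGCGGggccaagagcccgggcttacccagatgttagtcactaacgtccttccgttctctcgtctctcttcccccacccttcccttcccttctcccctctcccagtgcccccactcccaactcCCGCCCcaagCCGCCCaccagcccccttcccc
NTM promoter, most upstream of 5 starts: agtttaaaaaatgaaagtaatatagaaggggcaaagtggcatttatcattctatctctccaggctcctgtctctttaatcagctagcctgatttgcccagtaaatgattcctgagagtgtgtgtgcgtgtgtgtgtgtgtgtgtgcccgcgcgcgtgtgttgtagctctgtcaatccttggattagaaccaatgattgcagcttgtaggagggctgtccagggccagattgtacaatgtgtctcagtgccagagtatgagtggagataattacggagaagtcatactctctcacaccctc
NTM promoter, the fourth of 5 starts: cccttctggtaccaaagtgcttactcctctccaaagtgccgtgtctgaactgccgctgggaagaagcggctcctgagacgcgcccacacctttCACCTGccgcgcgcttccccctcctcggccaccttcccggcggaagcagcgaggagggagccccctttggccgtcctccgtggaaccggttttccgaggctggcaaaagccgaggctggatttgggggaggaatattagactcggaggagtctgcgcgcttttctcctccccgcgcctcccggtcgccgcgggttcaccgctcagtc
ALCAM promoter: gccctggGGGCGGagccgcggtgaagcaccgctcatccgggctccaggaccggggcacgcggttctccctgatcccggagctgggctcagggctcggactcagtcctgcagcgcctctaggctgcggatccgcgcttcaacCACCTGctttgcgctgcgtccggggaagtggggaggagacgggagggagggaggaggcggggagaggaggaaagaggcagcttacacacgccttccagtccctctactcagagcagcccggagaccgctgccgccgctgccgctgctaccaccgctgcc
The L1CAM window held 4 GC boxes and no E-box, with a GC content of 64.7%. The most upstream NTM window held neither and had a GC content of 46.0%, whereas the inner one held 1 E-box at 64.7%. The ALCAM window held 1 GC box and 1 E-box at 70.0%. Of all 35097 promoter windows, 44.9% hold a GC box and 20.6% this E-box, and their median GC content is 58.7%. The AP-1 motif TGANTCA (7.71% of windows), the TEAD motif GGAATG (14.04%), the TATA box TATAAA (11.5%) and the CArG box (1.29%) had no match in these 4 windows. Of the windows not shown, the second L1CAM start held 2 GC boxes, the third NTM start a TEAD match and a TATA box, and the fifth an E-box. L1CAM has 2 starts in the table and NTM 5, and counts per gene do not show which start was used. The counted L1CAM gene begins at 153886173 on the minus strand, upstream of both L1CAM windows. Both therefore lie inside the gene, and its outermost 5′ end is in neither.

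L1CAM (ENSG00000198910, GRCh38 chromosome X, 153861514 to 153886173, minus strand, merged exon length 7269 bases) had 230, 207 and 162 counts in control and 542, 464 and 464 in knockdown libraries. Per length this was 2.86, 2.75 and 2.10 TPM against 7.26, 5.68 and 6.19 TPM. Every knockdown library was well above every control library, and the third control library was the lowest of the 6. Its level went from 6.87 ± 1.16 to 16.4 ± 1.11 CPM (SD, n = 3), 2.38-fold higher (log2 fold change 1.25, SE 0.10). Among all genes tested, 30 were called with a larger increase. Its exons share 10.98% of their bases with other symbols, U52112.1 on the opposite strand (at most 3 counts in a library) and U52112.2 (0 counts in every library). Fragments that touch 2 symbols were not counted, so L1CAM loses those in the shared bases.

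NRCAM, an ankyrin-binding protein found at nodes of Ranvier, had 67, 60 and 60 counts in control and 64, 43 and 54 in knockdown libraries. The groups overlapped, and the log2 fold change was -0.26 (SE 0.17). NRCAM lies on chromosome 7, 108147623 to 108456717 (minus strand, ENSG00000091129). The other two L1 genes were hardly counted. NFASC (neurofascin, chromosome 1, 204828651 to 205022822) had 2, 4 and 5 counts in control and 5, 2 and 2 in knockdown libraries. CHL1 (close homolog of L1, chromosome 3, 196763 to 409417) had 1 count in a single control library and 0 in the other 5. No fold is given for genes this close to the floor of 3 counts. L1CAM was thus the main transcript of its family, at 2.10 to 2.86 TPM beside 0.692 to 0.738 TPM of NRCAM in control libraries.

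NTM, which promotes or restrains neurite growth depending on the neuron, fell in every knockdown library. It had 372, 374 and 355 counts in control and 128, 134 and 146 in knockdown libraries, or 4.83, 5.20 and 4.82 TPM against 1.79, 1.72 and 2.04 TPM. The groups lay far apart and the spread within each was small. Its level went from 12.6 ± 0.326 to 4.56 ± 0.399 CPM (SD, n = 3), a 2.77-fold decrease (log2 fold change -1.47, SE 0.10). Among all genes tested, 18 were called with a larger decrease. NTM (ENSG00000182667, chromosome 11, 131370478 to 132336822, plus strand, merged exon length 6956 bases) spans 966 kb, and 0.217% of tested genes span more. Of 213 tested genes that span 500 kb or more, 26 were higher and 40 lower (median log2 fold change -0.04). The shares over all genes tested were 18.9% higher and 18.3% lower. Of the 213, 1 had a lower log2 fold change than NTM. NTM shares no exon base with another symbol. The ratio of L1CAM to NTM per length was 0.592, 0.530 and 0.437 in control libraries and 4.05, 3.31 and 3.04 in knockdown libraries.

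NEGR1 (neuronal growth regulator 1, chromosome 1, 71395943 to 72282539, minus strand, ENSG00000172260) had 27, 30 and 48 counts in control and 31, 26 and 29 in knockdown libraries. The third control library was the highest, and the groups overlapped (log2 fold change -0.33, SE 0.24). Its exons share 7.46% of their bases with ZRANB2-AS2 on the opposite strand, which had 18 to 36 counts per library. LSAMP (limbic system associated membrane protein, chromosome 3, 115802363 to 117139389) had 0, 3 and 3 counts in control and 2, 2 and 5 in knockdown libraries. OPCML (opioid binding protein and cell adhesion molecule like, chromosome 11, 132414977 to 133532519), which follows NTM on the same chromosome, had 1, 0 and 0 counts against 1, 2 and 2. IGLON5, the remaining IgLON gene, had 4, 3 and 3 counts against 5, 3 and 6. NTM was thus the main IgLON transcript in both groups. Of 9 listed antisense and intronic transcripts of the members, 8 are in the table, 7 of them had 0 counts in every library, and NTM-AS1 had 1, 0 and 1 counts in control and none in knockdown.

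ALCAM was modestly higher in knockdown. It had 5111, 4426 and 4629 counts in control and 6010, 5800 and 5819 in knockdown libraries, or 175, 153 and 160 CPM against 196, 196 and 198 CPM. The knockdown libraries lay close together and above all control libraries. The mean went from 163 ± 11.5 to 197 ± 1.18 CPM (SD, n = 3), 1.21-fold higher (log2 fold change 0.28, SE 0.05). Of all genes tested, 1435 were called with a larger increase. ALCAM lies on chromosome 3, 105366909 to 105576900 (plus strand, ENSG00000170017). MCAM had 106, 152 and 138 counts in control and 161, 146 and 136 in knockdown libraries. The first control library was the lowest, the groups overlapped, and the log2 fold change was 0.12 (SE 0.13). MCAM lies on chromosome 11, 119308529 to 119321521 (minus strand, ENSG00000076706), and shares 7.71% of its exon bases with CBL on the opposite strand and MIR6756.

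Fold changes in these libraries moved with GC content: the median log2 fold change was 0.18 among the tested genes of lowest GC content and -0.27 among those of highest. L1CAM, at 60.0% GC, stood against a median of -0.13 over 875 tested genes within 1 percentage point of it. NTM, at 49.8%, stood against -0.02 over 1039 such genes. With fold changes corrected for GC content and length, L1CAM had a log2 fold change of 1.40 and NTM of -1.44. ALCAM, at 39.6% GC, stood closer to its like, whose median was 0.14 over 1307 genes, and its corrected value was 0.17. NRCAM (-0.26), NEGR1 (-0.33) and MCAM (0.12) stood beside medians of 0.12, 0.18 and -0.09 for genes of their GC content. Their corrected values were -0.33, -0.44 and 0.21.

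**Figure D2:**
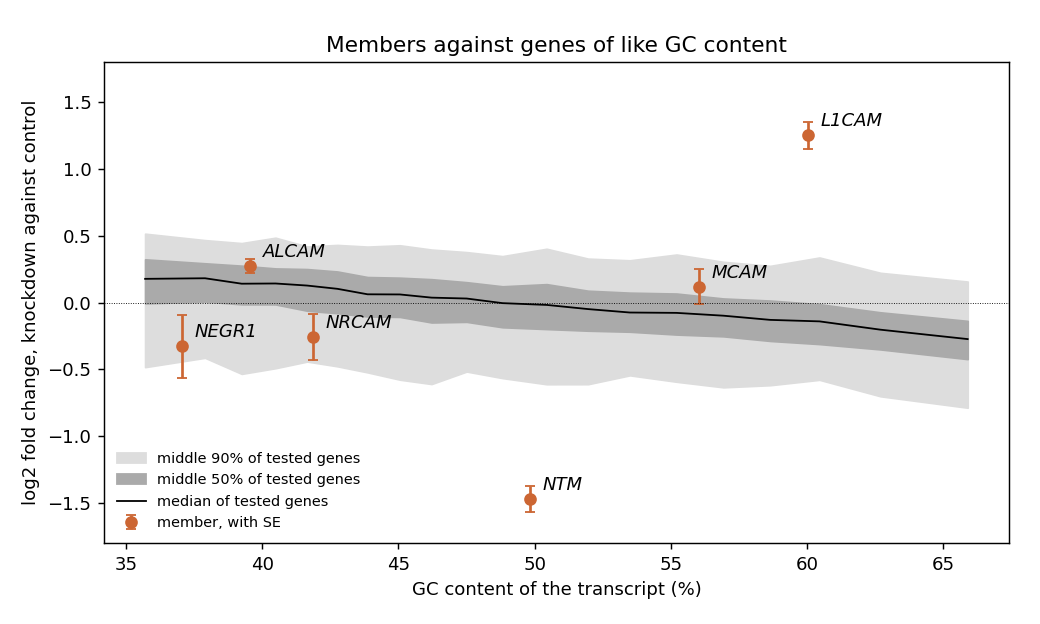
Log2 fold change (knockdown against control, with SE) of the 6 tested members against the GC content of the transcript in percent, over bands that hold the middle 50% and 90% of tested genes. L1CAM at 1.25 and NTM at -1.47 lie outside the wider band, and ALCAM, MCAM, NRCAM and NEGR1 lie inside it.

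The genes around L1CAM did not rise with it. Among all genes tested, edgeR called 18.9% higher and 18.3% lower, the shares to set beside the counts of neighbours below. Of 22 tested genes within 500 kb of L1CAM it called 0 higher and 9 lower, among them the actin crosslinker gene FLNA. Log2 fold changes of the 22 ran from -0.53 to 0.70, with a median of -0.24. At an unadjusted p under 0.05, 0 were higher and 13 lower, and DESeq2 called 0 higher and 6 lower. The nearest genes on either side did not pass the threshold: ARHGAP4, 21.2 kb away, had a log2 fold change of -0.44 (edgeR adjusted p = 0.10), NAA10 of 0.07 (0.61), SSR4 of -0.13 (0.094) and IDH3G of -0.13 (0.099). These genes have a median GC content of 61.3%, and after the correction for GC content 2 were higher, 3 lower and the median was -0.05. NTM had 1 tested neighbour, the sorting nexin gene SNX19, 454 kb away, with a log2 fold change of 0.05 (edgeR adjusted p = 0.41). ALCAM also had 1, the ubiquitin ligase gene CBLB, which fell by 0.27 on the log2 scale (edgeR adjusted p = 0.0099). NRCAM, whose own values overlapped, had 5 higher and 0 lower among 9 by edgeR, 6 and 0 at an unadjusted p under 0.05, and 4 and 0 by DESeq2. After the correction for GC content 4 were higher and 1 lower. Of 17 tested neighbours of MCAM, 3 were higher and 5 lower, and 5 and 1 after the correction.

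Partners of these proteins were followed in 7 lists, also compiled with earlier results of these data known. The lists were not tested as sets. Among all genes tested 18.9% were higher and 18.3% lower, with a median log2 fold change of -0.008. In parentheses below, a log2 fold change is followed by its edgeR adjusted p, and a lost call is given with its adjusted p. Inside the cell, among the ankyrins, which hold the L1 tail, ANK1 had a log2 fold change of 0.41 (edgeR adjusted p = 0.0067), whereas ANK2 (-0.04, 0.71) and ANK3 (-0.05, 0.77) did not pass. SHTN1 (shootin1), which links L1CAM to moving actin in growth cones, rose from 34.1 ± 0.402 to 48.9 ± 1.30 CPM (SD, n = 3; log2 fold change 0.52, SE 0.05, edgeR adjusted p = 1.1e-07). Of the ERM linkers, EZR rose from 212 ± 8.03 to 252 ± 5.50 CPM (0.25, 2.2e-04) and RDX also rose (0.29, 3.4e-05), while MSN had -0.02 (0.76), in the same edgeR test. RANBP9, an adaptor that binds the L1 tail, rose (0.32, edgeR adjusted p = 3.8e-05). AP2A1, a subunit of the adaptor that takes L1CAM up from the membrane, fell by 0.32 (edgeR adjusted p = 1.0e-05), and by 0.14 after the correction for GC content. The corrected value of RDX was 0.18. In all, 5 of 13 tested cytoplasmic partners were higher and 1 lower, with a median log2 fold change of 0.005. CTTN had 0 or 1 count per library. Its symbol also lies on 1 further sequence of the build besides its chromosome, and fragments that align to both were not counted.

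Outside the cell, 2 of 13 tested partners of L1 proteins were higher and 3 lower, with a median of -0.003, beside 37.2% called among all genes tested. SEMA3A, the ligand for which L1CAM and NRP1 form a receptor, fell from 5.61 to 3.57 CPM (log2 fold change -0.65, SE 0.12, edgeR adjusted p = 1.8e-04). NRP1 fell by 0.17 (edgeR adjusted p = 0.024), which was lost without control library 1 (0.18) or knockdown library 2 (0.093) or 3 (0.14). CD24 rose (0.27, edgeR adjusted p = 2.8e-04), as did EGFR (0.24, 0.0012). FGFR1 fell by 0.16 (edgeR adjusted p = 0.0070), but had -0.05 (0.34) after the correction for GC content and missed the threshold without knockdown library 3 (0.055). The integrin chains ITGB1 (0.07) and ITGAV (-0.003) and the tetraspanin CD9 (-0.07) did not pass. Without knockdown library 3, 3 genes of this list were called.

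Among the partners of ALCAM and MCAM, both laminin chains listed fell. LAMA4, of the laminin that MCAM binds, went from 3.42 ± 0.248 to 1.38 ± 0.214 CPM (SD, n = 3). It was 2.49-fold lower (-1.31 on the log2 scale with an SE of 0.16, edgeR adjusted p = 1.4e-06). LAMA5 fell from 767 ± 54.1 to 548 ± 52.6 CPM (-0.49, edgeR adjusted p = 1.3e-05), and by 0.20 after the correction for GC content. SDCBP (syntenin-1), which binds the tail of ALCAM, rose (0.21, edgeR adjusted p = 0.0013), a call lost after that correction (0.12). LGALS3 (galectin-3) fell by 0.17 (edgeR adjusted p = 0.029), a call lost after the correction (0.37) and without control library 1 (0.12), control library 2 (0.15) or knockdown library 3 (0.20). LGALS1 had -0.06 and did not pass. In all, 3 of 12 tested were higher and 4 lower (median -0.04), beside 18.9% and 18.3% of all genes tested. The lower count was 2 without control library 1, control library 2 or knockdown library 3. After the correction for GC content 1 of the list was higher and 3 lower.

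Of 19 tested proteases and cofactors that release adhesion molecules from the surface, 3 were higher and 9 lower, with a median of -0.04. Among all genes tested 18.9% were higher and 18.3% lower. After the correction for GC content 3 of these proteases and cofactors were higher and 6 lower (median 0.004). Among those known for L1CAM, ADAM10 rose from 120 to 137 CPM (log2 fold change 0.19, edgeR adjusted p = 0.0048), a call lost after the correction for GC content (0.17), and ADAM17 rose by 0.21 (0.0040). BACE2 fell from 55.2 to 38.6 CPM (-0.51, edgeR adjusted p = 3.3e-07). BACE1 had -0.16 (edgeR adjusted p = 0.024) and lost its call without control library 1 (0.10) or 2 (0.062), without knockdown library 1 (0.13) or 3 (0.066), with no filter on low counts (0.083) and after the correction for GC content (0.057). The matrix protease MMP14 (-0.44, edgeR adjusted p = 7.0e-07) and the plasminogen activators PLAT (-0.34, 1.1e-05) and PLAU (-0.29, 6.5e-05) fell. After the correction for GC content MMP14 had -0.32, PLAT -0.26, PLAU -0.21 and BACE2 -0.50.

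The GPI anchor that carries the IgLON proteins is built and attached by a long enzyme series. Of 31 listed genes 28 were tested, and 2 were higher and 6 lower (median -0.06), beside 18.9% and 18.3% of all genes tested. With upper-quartile scaling 2 of the list were higher and 10 lower, and after the correction for GC content 3 were higher and 4 lower. GPAA1, a subunit of the transamidase that attaches the anchor, fell from 130 ± 3.06 to 78.8 ± 3.14 CPM (SD, n = 3), a 1.64-fold decrease (log2 fold change -0.72, edgeR adjusted p = 7.5e-11). PIGA, of the enzyme that starts the anchor, rose (0.45, edgeR adjusted p = 6.4e-06), as did DPM1, of the mannose donor synthase (0.33, 2.6e-05). After the correction for GC content GPAA1 had -0.49, PIGA 0.33 and DPM1 0.24. PIGQ, of the same starting enzyme as PIGA, fell by 0.33 (edgeR adjusted p = 2.8e-04) but had -0.05 (0.56) after the correction for GC content.

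Other adhesion molecules with immunoglobulin domains were more often lower than higher: 6 of 39 tested were higher and 18 lower, with a median of -0.19. Among all genes tested 18.9% were higher and 18.3% lower, with a median of -0.008. After the correction for GC content, 8 of the list were higher and 19 lower. CEACAM1 moved the other way, from 4.66 to 9.44 CPM, 2.02-fold higher (log2 fold change 1.02, SE 0.11, edgeR adjusted p = 1.1e-07). ICAM5, a neural ICAM, fell from 28.8 to 15.99 CPM (-0.85, edgeR adjusted p = 3.0e-09), and PTK7 (-0.50, 9.6e-08) and the receptor phosphatase gene PTPRS (-0.52, 1.4e-07) fell too. After the correction for GC content ICAM5 had -0.55 and PTPRS -0.32. NCAM1 had at most 1 count in a library, and CADM1 was at 0 counts in all 6.

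Of 14 tested factors reported to control L1CAM, edgeR called 5 higher and 0 lower, beside 18.9% and 18.3% of all genes tested. The median log2 fold change of the 14 was 0.14. At an unadjusted p under 0.05, 6 were higher and 0 lower, and DESeq2 called 5 and 0. ZEB1 rose from 46.9 to 64.8 CPM (0.47, edgeR adjusted p = 2.4e-06), TCF7L1 rose (0.45, 2.8e-04), and so did RCOR1 (0.23, 7.2e-04). HDAC2 rose (0.16, edgeR adjusted p = 0.011), but not past the threshold after the correction for GC content (0.37) or without control library 2 (0.057). REST, the repressor that keeps neuronal genes silent outside the nervous system, had 0.18 (edgeR adjusted p = 0.017). It lost its call after the correction for GC content (0.30), without control library 1 (0.069) or 2 (0.082) and without knockdown library 1 (0.10) or 3 (0.067). SNAI2 (0.03) and CTNNB1 (-0.01) did not pass, and TWIST1 and HOXA9 had 0 counts in every library. Without control library 2, 3 genes of this list were called.

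**Figure D3:**
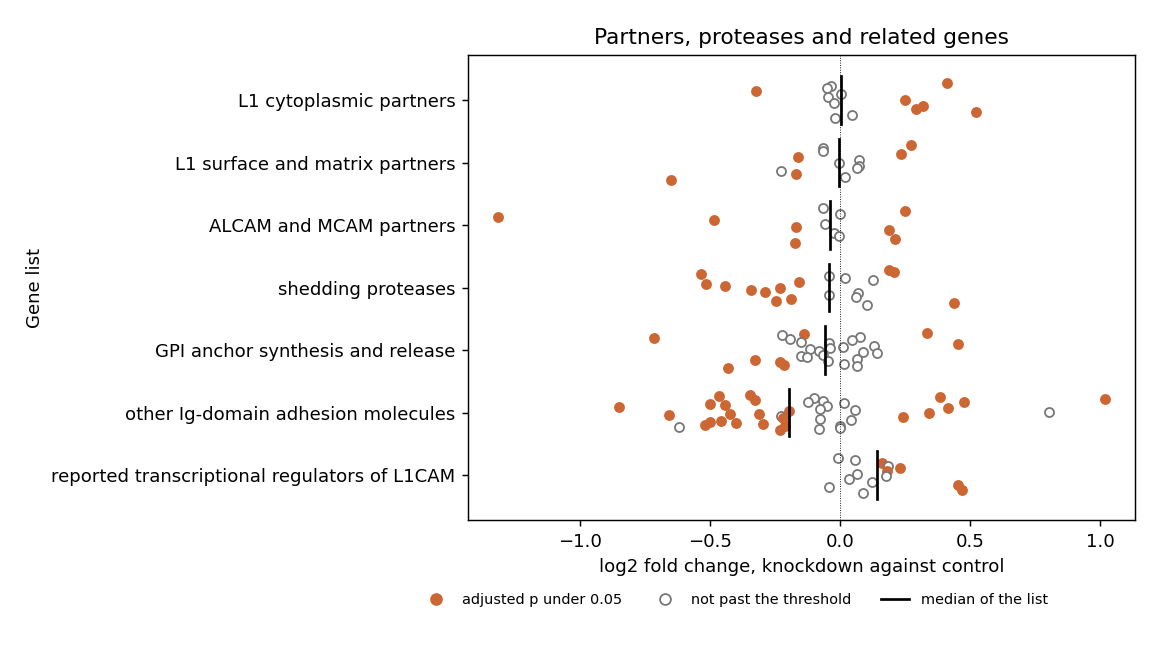
Log2 fold change (knockdown against control) of each tested gene in the 7 lists of partners and related genes, filled where the edgeR adjusted p is under 0.05, with the list median as a black line. The list medians run from -0.19 for other adhesion molecules to 0.14 for the factors reported to control L1CAM, and LAMA4 at -1.31 and CEACAM1 at 1.02 are the outermost points.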

How the data were processed

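The authors deposited raw fragment counts, 1 row per gene symbol. Per the file headers, featureCounts 1.6.4 counted read pairs on GENCODE 32 exons (GRCh38). The submitters' processing notes also name Trim Galore 0.6.4, STAR 2.7.1a and hg38. The headers show no option for strand, multi-mapping or overlapping features, so at its defaults it counted both strands alike and left out fragments that aligned to, or overlapped, more than 1 symbol. A further deposited column gives the merged exon length. All 3 control column names extend the title of the first control sample by a further number, so which control sample each holds is not known, they may be repeats of 1 sample, and they are numbered in table order, as names only.

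Counts were filtered (filterByExpr, 16633 of 61155 symbols), scaled by TMM and tested with edgeR 4.0.16 (robust quasi-likelihood, two-sided, Benjamini-Hochberg, threshold 0.05), with no term but group, in R 4.3.3. The biological coefficient of variation was 4.81%. SEs were obtained as the log2 fold change over the square root of the F statistic. CPM are TMM-scaled. The floor of 3 counts covers counting error only. GC content came from GENCODE 29 (98.4% of tested genes). The correction named for GC content fits splines of GC content and of exon length together in each library. Alternatives were DESeq2 1.42.0, other scalings and filters, this correction and leaving out each library.

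The members and all lists were chosen with earlier results of these data known. Genes named in each list were a fixed selection plus up to 4 with the smallest p among those called. ANK1 was named outside this rule, and its values under the alternatives are not given. Some genes were also named for their low counts. The summary of genes spanning 500 kb or more, the genes of like GC content, CBLB and FLNA were added after values were seen. Single values of some neighbours of L1CAM are not reported here.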

Additional observations from a re-analysis of the deposited data

How the results depend on the processing

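Over the 12 alternatives, L1CAM kept a log2 fold change of 1.13 to 1.40, NTM of -1.54 to -1.41 and ALCAM of 0.17 to 0.33, while NRCAM ran from -0.38 to -0.12, NEGR1 from -0.49 to -0.03 and MCAM from -0.02 to 0.23. The members were chosen on this contrast, so these ranges are a description and no support for it. Genes called over the whole table were 6187, and 4849 after the correction for GC content, 5205 with DESeq2 and 4481 to 6399 with a library left out. By CPM without length, 6 of the 10 members kept their rank in control, and 8 to 10 kept it with a control library left out. The genes that moved, LSAMP, NFASC, OPCML and CHL1, are near the floor of 3 counts. With a library left out, the surface and matrix partners of L1 had 3 to 5 calls, and the regulators 3 to 6. The partners of ALCAM and MCAM had 4 calls after the correction for GC content. Values whose sign changed all belong to genes not past the threshold. After the correction for GC content, MSN had 0.011, ITGB1 -0.034, LGALS1 0.092 and SNAI2 -0.038. With no filter on low counts, ITGAV had 0.018 and CTNNB1 0.012. With a library left out, MCAM ran from -0.017 to 0.23, ANK2 from -0.12 to 0.036, ANK3 from -0.15 to 0.056, MSN from -0.045 to 0.0046, ITGAV from -0.053 to 0.065, LGALS1 from -0.096 to 0.0065, SNAI2 from -0.045 to 0.12 and CTNNB1 from -0.034 to 0.020. The cause was not tested. Of 600 values over 50 genes, 556 kept direction and call, 25 lost the call and 19 changed sign. No paired analysis was possible because the control columns all extend the title of 1 control sample, so their numbers cannot be matched to the numbered control samples. At a few counts per library, a change in CHL1, NFASC, LSAMP or OPCML was not detectable at this depth.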
